A study of Mus musculus with 12 samples.

Results

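The genes described here are 10 members of cyclic AMP and CREB signalling in mouse prefrontal cortex: Gpr3, Adcy1, Pde4b, Pde4d, Prkar2b, Creb1, Crem, Crtc1, Crtc2 and Sik1. They were taken by gene symbol from the 28842 genes of the deposited expression table, and each symbol matched 1 row. The set was in part selected on measured values of these libraries, the differences between cocaine and saline, so those differences are given as a description. The fits over all genes include these 10, and nothing is read from how many of them passed. RNA was sequenced from the cortex of wild-type male C57BL/6J mice, 6 libraries per group. Mice of the cocaine group were injected with 15 mg/kg cocaine between postnatal days 28 and 42, and mice of the saline group with saline over the same days. All animals, in both groups, were then given 1 mg/kg cocaine on days 76 and 77 before training for conditioned place preference, in which time spent in a place paired with the drug is measured. They had a pre-test on day 75 and the final test on day 78, and tissue was taken 30 to 60 min after it. The comparison is therefore of adolescent exposure in animals with the same adult treatment, and no group was free of the drug. Whether libraries and mice correspond is not stated in the labels, and errors and p-values cover variation among libraries, which may be technical.

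Cyclic AMP is an intracellular messenger made by adenylyl cyclases when receptors coupled to the stimulatory G protein are active, and it is broken down by phosphodiesterases. It releases the catalytic subunits of protein kinase A from their regulatory subunits, and the kinase phosphorylates the transcription factor CREB, which binds cyclic AMP response elements in promoters. CREB also needs coactivators of the CRTC family, which salt-inducible kinases keep out of the nucleus. In cortical and striatal neurons the pathway couples synaptic activity and dopamine to transcription, and it has long been studied in drug exposure.

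The libraries held between 16.7 and 19.9 M reads, and mitochondrial transcripts took 3.24 to 5.43 percent of them. Excitatory cortical neuron markers were present in every library, with mean levels of 1.92 to 368 FPKM (reads scaled for transcript length and library total) over 7 genes. The labels also name a mesenchymal stem cell line; 8 mesenchymal and fibroblast markers had means of 0.155 to 1.099 FPKM. The library saline 5 stood apart: Ttr, a choroid plexus transcript, was at 11208 normalised reads there, and the highest of the remaining libraries had 13.2. Beside the choroid plexus, myelinating oligodendrocyte markers varied most between libraries. All 10 had a lower mean in the cocaine group, and their summed level ran from 51162 to 202831 normalised reads in cocaine libraries and from 34573 to 246160 in saline libraries. In bulk tissue, fewer cells of a type and less RNA per cell cannot be told apart.

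Gpr3 encodes an orphan receptor that stimulates cyclic AMP production without a known added ligand. It had the largest difference between the groups among the 10 genes. Gpr3 (ENSMUSG00000049649) spans positions 133209340 to 133212536 of chromosome 4 (GRCm38, minus strand). Its normalised read counts, meaning reads divided by the library's size factor, were 256, 206, 178, 171, 205 and 214 in cocaine libraries 1 to 6, against 120, 173, 175, 161, 158 and 134 in saline libraries 1 to 6. Of the 6 cocaine libraries 5 lay above the highest saline library, and the groups overlapped only through cocaine 4, at 171, and saline 2 and 3. Gpr3 averaged 205 ± 30.3 in cocaine and 153 ± 22.02 in saline libraries (SD, n = 6 each), a 1.34-fold ratio, with a log2 difference of 0.42 ± 0.13 (SE).

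The Gpr3 difference was 0.35 without cocaine 1, the highest cocaine library, and also 0.35 without saline 1, the lowest saline library. It was 0.43 without saline 5. Of the 2734 exon bases of Gpr3, 204 are shared with Cd164l2 on the opposite strand, and whether the counting used strand is not given in the sources used here. Cd164l2 itself had 34.9 to 65.6 normalised reads in cocaine and 36.9 to 63.7 in saline libraries.

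The promoter of Gpr3 is shown because CREB acts through such windows. Beside it stands an internal Pde4b promoter, the other of the 11 windows examined that held a short response element. That of Adcy1, a gene with a wide spread between libraries and no such element, is also shown. Each window covers 300 bases, 250 before to 50 after a RefSeq start site (GRCm38.p6), read 5′ to 3′ on the gene's strand. Capitals mark the short cyclic AMP response element (TGACG, or CGTCA when read from the other strand) in Gpr3 and Pde4b, and the GC box (GGGCGG or CCGCCC) in Adcy1.
Gpr3, chr4:133212487-133212786, minus strand: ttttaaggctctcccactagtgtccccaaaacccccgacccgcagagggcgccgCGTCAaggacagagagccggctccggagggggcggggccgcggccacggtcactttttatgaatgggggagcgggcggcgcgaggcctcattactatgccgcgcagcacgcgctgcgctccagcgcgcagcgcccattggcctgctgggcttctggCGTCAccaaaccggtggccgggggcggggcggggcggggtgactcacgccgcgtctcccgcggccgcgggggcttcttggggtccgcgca
Pde4b, chr4:102421305-102421604, plus strand: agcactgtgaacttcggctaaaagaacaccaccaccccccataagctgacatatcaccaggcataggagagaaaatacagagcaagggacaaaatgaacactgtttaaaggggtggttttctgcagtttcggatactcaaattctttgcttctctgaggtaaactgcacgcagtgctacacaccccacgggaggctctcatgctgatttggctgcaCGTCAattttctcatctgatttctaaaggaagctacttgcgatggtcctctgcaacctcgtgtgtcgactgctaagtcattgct
Adcy1, chr11:7063183-7063482, plus strand: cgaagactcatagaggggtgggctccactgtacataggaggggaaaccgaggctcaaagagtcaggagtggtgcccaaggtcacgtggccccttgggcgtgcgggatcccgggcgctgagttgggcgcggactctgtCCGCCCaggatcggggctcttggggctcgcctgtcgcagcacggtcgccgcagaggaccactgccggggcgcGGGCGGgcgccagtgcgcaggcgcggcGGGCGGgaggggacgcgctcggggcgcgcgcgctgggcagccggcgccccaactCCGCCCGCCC

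The Gpr3 window held the short element 2 times, starting 196 and 40 bases upstream of the start site, both read from the other strand. The Pde4b window held it 1 time, 34 bases upstream. Windows were taken by symbol for 7 of the 10 genes, 11 windows in all, and none was found for Crtc2 and Sik1. Windows of members on chromosome 18, where Crem lies, were left out, so Crem was not examined. The short element was in 2 of the 11 windows and in 20.8 percent of all 32851 promoter windows. The full element, TGACGTCA, which contains the short one, was in 0 of the 11 and in 1.79 percent of all windows. No chromosome was left out of all windows, and the counts of the members say nothing about Crem, Crtc2 or Sik1. The GC box was in 4 of the 11, 5 times in Gpr3 and 5 times in Adcy1, and in 35.7 percent of all windows. A match is a description of the letters and not a measured binding site.

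Adcy1 is the calmodulin-stimulated adenylyl cyclase of cortical neurons (ENSMUSG00000020431, plus strand of chromosome 11, 7063489 to 7178506). It was the most abundant of the 10 genes and differed widely between libraries of the same group. Its normalised read counts in cocaine libraries 1 to 6 were 8372, 22641, 12294, 13148, 7935 and 15009. In saline libraries 1 to 6 they were 11722, 15561, 20599, 22165, 6437 and 8555. Cocaine 2 and saline 3 and 4 were the high libraries, and saline 5, cocaine 5, cocaine 1 and saline 6 the low ones, so each group spanned nearly the whole range. The labels carry a time tag, day 5 or day 0, that splits each group 3 and 3 and that does not match the described schedule. In cocaine libraries Adcy1 had 13148 to 22641 with the day 5 tag and 7935 to 12294 with the day 0 tag, with no overlap. In saline libraries it had 8555 to 22165 with the day 5 tag and 6437 to 20599 with the day 0 tag, which overlapped. Creb1, Crtc1 and Pde4b also had no overlap between tags in cocaine libraries, and overlapped in saline libraries. The share of all genes without overlap between tags was not computed. The means of Adcy1 were 13233 ± 5371 in cocaine and 14173 ± 6395 in saline libraries (SD, n = 6 each), with a log2 difference of -0.05 ± 0.32 (SE).

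Pde4b and Pde4d encode cyclic AMP phosphodiesterases of the rolipram-sensitive PDE4 family. Pde4d (plus strand of chromosome 13, 108449948 to 109953461) had 259, 834, 519, 490, 251 and 623 normalised reads in cocaine libraries 1 to 6. In saline libraries 1 to 6 it had 351, 647, 813, 950, 160 and 287. The highest and lowest libraries differed 5.94-fold, more than in any other of the 10 genes, and both belonged to the saline group. Its log2 difference between groups was 0.02 ± 0.42 (SE), whereas the means, 496 ± 222 in cocaine and 535 ± 316 in saline libraries, stood in the other order. Pde4b ran from 1400 to 2056 in cocaine libraries and from 1616 to 2038 in saline libraries, with means of 1821 ± 310 in cocaine and 1869 ± 177 in saline libraries and a log2 difference of -0.05 ± 0.12 (SE). The annotation lists 20 transcripts for Pde4d and 13 for Pde4b, each with its own start, and the counts per gene merge them.

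Prkar2b encodes RII beta, a regulatory subunit of protein kinase A that is found in brain. Its counts ran from 1263 to 1582 in cocaine and from 1106 to 1679 in saline libraries. The means were 1407 ± 128 in cocaine and 1416 ± 223 in saline libraries, with a log2 difference of 0.00 ± 0.11 (SE).

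Creb1 encodes CREB itself, and the deposited table lists both it and Crem as transcription factors. Creb1 had a lowest, median and highest count of 802, 999 and 1086 in cocaine libraries, against 754, 922 and 1032 in saline libraries. Its groups overlapped over most of their range, and the log2 difference was 0.09 ± 0.09 (SE). Crem encodes activators and, from an internal promoter, the inducible repressor ICER, which itself answers to CREB. Crem had 326, 299, 342, 258, 338 and 338 normalised reads in cocaine libraries 1 to 6, against 284, 315, 283, 295, 302 and 257 in saline libraries 1 to 6. In 4 of 6 cocaine libraries the count exceeded the highest saline library, while cocaine 4 stood with the lowest saline library, and the log2 difference was 0.13 ± 0.09 (SE). The annotation gives Crem 39 transcripts, which the counts per gene merge, so ICER was not measured apart from the other forms. Of its 5895 exon bases 472 are shared with Gm6225 on the opposite strand, which had 21.7 reads or fewer in every library.

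Crtc1 and Crtc2 encode CREB coactivators, Crtc1 being the neuronal form. Crtc1 ran from 2911 to 4231 normalised reads in cocaine and from 2712 to 4587 in saline libraries, with a log2 difference of -0.04 ± 0.13 (SE). Crtc2 had 399, 326, 345, 371, 369 and 373 in cocaine libraries 1 to 6, against 480, 382, 336, 362, 403 and 441 in saline libraries 1 to 6. All cocaine values lay within the saline range except cocaine 2, which was lower, and the log2 difference was -0.13 ± 0.10 (SE). It was -0.08 without saline 1, the library with the highest count.

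Sik1, a salt-inducible kinase whose gene is itself a CREB target, phosphorylates the CRTC proteins. Sik1 (ENSMUSG00000024042, minus strand of chromosome 17, 31844248 to 31855792) had 249, 281, 246, 246, 256 and 280 normalised reads in cocaine libraries 1 to 6. In saline libraries 1 to 6 it had 162, 222, 248, 211, 246 and 195. Saline 3, at 248, was the single saline library above the lowest cocaine library, and the cocaine values were close together. The means were 260 ± 16.6 in cocaine and 214 ± 32.7 in saline libraries (SD, n = 6 each), a 1.21-fold ratio, with a log2 difference of 0.29 ± 0.11 (SE). The difference was 0.21 without saline 1.

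**Figure D1:**
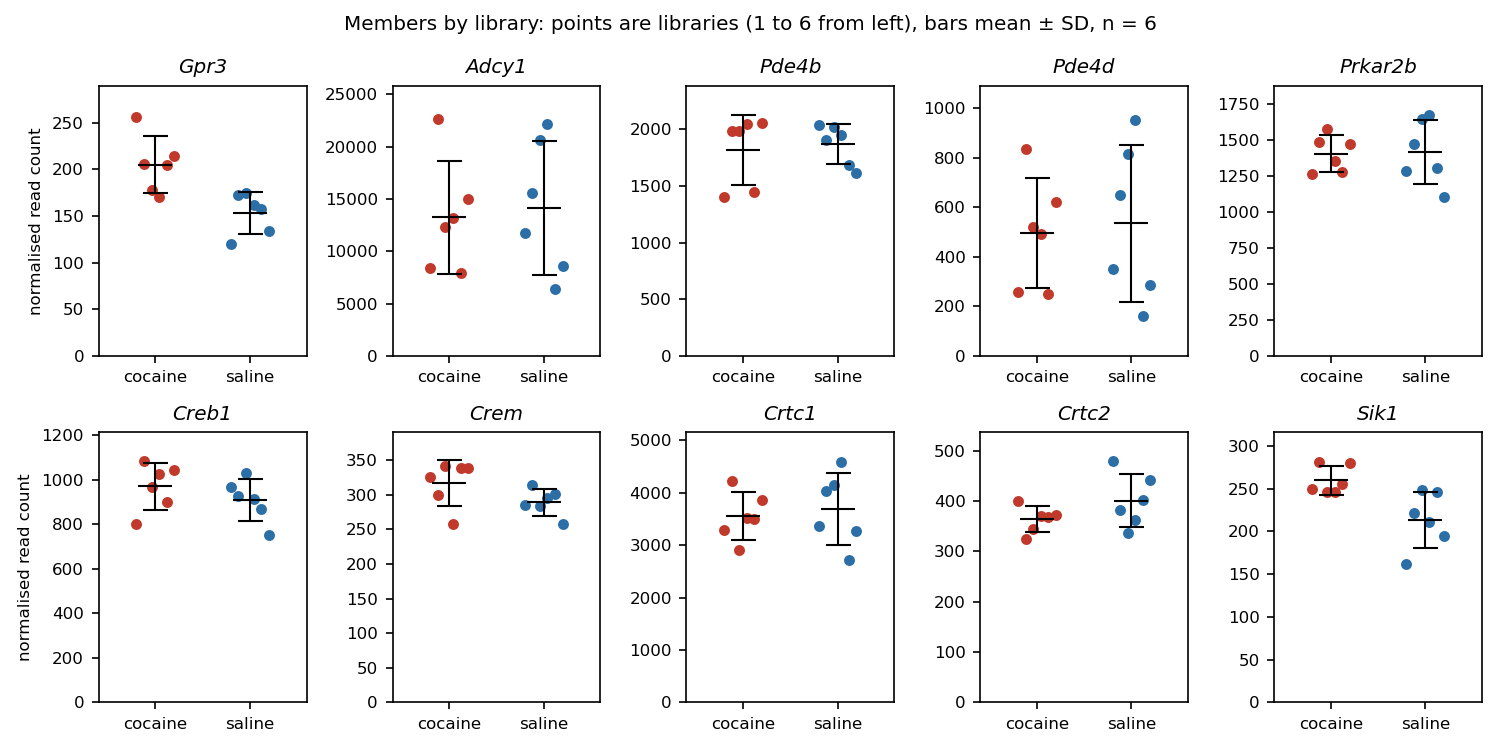
Normalised read count (y axis, from 0) of each of the 10 genes in 6 cocaine libraries (left, red) and 6 saline libraries (right, blue), with bars for the mean ± SD. The Gpr3 values are 171 to 256 in cocaine and 120 to 175 in saline libraries, while Adcy1 spans 7935 to 22641 in cocaine and 6437 to 22165 in saline libraries.

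Of the 10 genes 6 had a higher and 4 a lower mean in cocaine libraries by limma on the log scale (4 were higher by edgeR and DESeq2: Pde4d was at -0.10 by edgeR and -0.11 by DESeq2, and Prkar2b at -0.005 and -0.009), and the median log2 difference was 0.01 over the members and 0.01 over all 13016 genes. By limma, 0 of the 10 passed an adjusted p of 0.05, as did 0 percent of all genes. At an unadjusted p under 0.05 there were 2 members, Gpr3 and Sik1, against 1.14 percent of all genes. Both were higher in cocaine libraries, as were 0.676 percent of all genes at that threshold, while 0 members and 0.469 percent of all genes were lower. Since the members were chosen with this contrast known, nothing is read from these counts. edgeR and DESeq2 on the recovered reads likewise passed 0 of the 10, with 2 at an unadjusted p under 0.05 in each, against 1.58 percent of all genes by edgeR and 1.48 percent by DESeq2. DESeq2 passed 0.0104 percent of all genes at the adjusted threshold, and edgeR 0 percent. The groups overlapped in all 10 members, and failed to overlap in 0.0768 percent of all genes, 0.0615 percent higher and 0.0154 percent lower in cocaine libraries. In the authors' deposited table the adjusted p was 1.00 for each of the 10, beside 0.0104 percent of all genes called there.

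**Figure D2:**
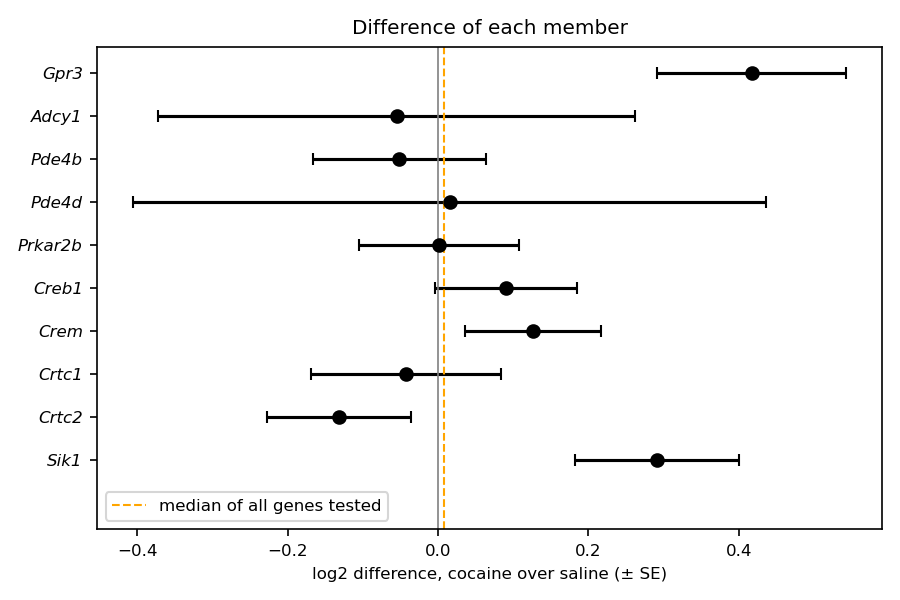
Log2 difference between cocaine and saline libraries (x axis) for the 10 genes, with bars of 1 SE and a dashed line at the median of all genes tested. Gpr3 stands at 0.42 and Sik1 at 0.29, the other 8 lie between -0.13 and 0.13, and the bars of Pde4d and Adcy1 are the longest.

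Per length, the order of the levels was led by the cyclase. Over all 12 libraries Adcy1 averaged 61.6 ± 23.9 FPKM, Prkar2b 21.9 ± 2.24, Crtc1 18.3 ± 2.43, Pde4b 9.91 ± 1.21 and Crtc2 5.31 ± 0.719 (SD, n = 12). Creb1 followed at 3.89 ± 0.364 FPKM, Gpr3 at 3.72 ± 0.753, Sik1 at 2.98 ± 0.413, Crem at 2.92 ± 0.287 and Pde4d at 2.41 ± 1.17. Of the 9 pairs of neighbours in that order 4 had ranges that did not overlap: Adcy1 with Prkar2b, Crtc1 with Pde4b, Pde4b with Crtc2 and Crtc2 with Creb1. The highest Gpr3 value, 5.36 FPKM in cocaine 1, lay within the range of Crtc2, which ran from 4.35 FPKM. From Creb1 down to Pde4d every neighbouring pair overlapped, and Sik1 exceeded Crem in 6 of 12 libraries. Prkar2b and Crtc1 overlapped in range too, although Prkar2b was higher within each of the 12 libraries. Levels rest on the gene length in the deposited table. For Sik1 that is 4511 bases, against 5133 exon bases in GENCODE M21, with which Sik1 would average 2.62 ± 0.363 FPKM, below Crem, and exceed Crem in 3 of 12 libraries. For the other 9 genes the lengths are equal, and the long annotated exons of Creb1 (13742 bases) lower its value per length.

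Within the pairs of related genes the balance moved between libraries. The FPKM ratio of Pde4b over Pde4d ran from 2.71 to 6.55 in cocaine libraries and from 2.33 to 11.995 in saline libraries, the highest being saline 5. The ratio of Crtc1 over Crtc2 averaged 3.60 ± 0.633 in cocaine and 3.46 ± 1.00 in saline libraries (SD, n = 6 each).

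**Figure D3:**
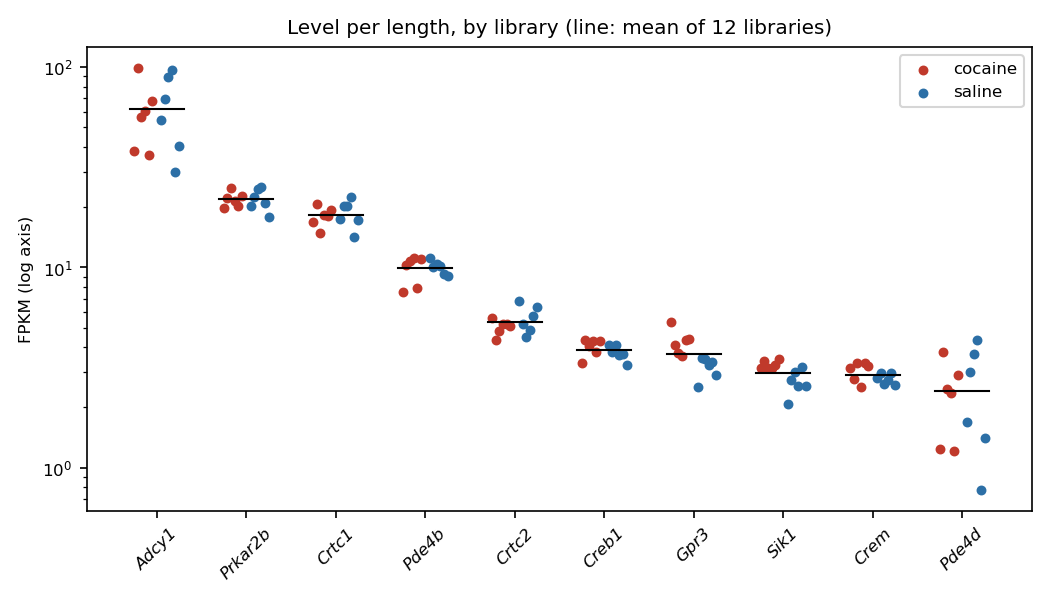
Level per length in FPKM (log axis) of the 10 genes in cocaine (red) and saline (blue) libraries, ordered by the mean of 12 libraries (line). Adcy1 averages 61.6 FPKM and Pde4d 2.41, and these 2 genes have the widest columns of points.

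Within groups, 7 of the genes varied together across libraries, a measure that leaves out the difference between groups. Adcy1 and Pde4d were among the most variable of the genes tested. Their within-group SD was 0.64 and 0.86 on the log2 scale, at percentiles 95.1 and 97.6 of all genes tested, while Crem stood at percentile 14.7. After each group's mean was removed, Adcy1 and Pde4d correlated across the 12 libraries with a Pearson r of 0.98 (permutation p = 1e-05, the smallest the permutations can give, adjusted p = 0.00045 over 45 pairs; Spearman rho = 0.97, permutation p = 1e-05). Without the 2 libraries farthest from the median of Pde4d the r was 0.97, and it was 0.98 within cocaine and 0.99 within saline libraries. Of the 45 pairs 12 passed an adjusted p of 0.05 by r and 7 by rho, 11 of the 12 positive. The share of passing pairs among all genes was not computed. For pairs with Adcy1, the share of all genes reaching the same r is given below. All 12 pairs lay among Adcy1, Pde4d, Crtc1, Pde4b, Prkar2b, Creb1 and Crtc2, and kept their sign without the 2 farthest libraries, with r of at least 0.41 in size. Within the 6 libraries of each time tag the 12 pairs kept their sign, and Adcy1 with Pde4d had an r of 0.99 among day 5 and 1.00 among day 0 libraries. With the tag removed from both genes, an alternative added after the data were seen, 5 of the 45 pairs passed, among them Adcy1 with Pde4d (r = 0.98) and Creb1 with Pde4b (r = 0.89), and Crtc2 was in none.

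The negative pair was Crtc2 with Prkar2b, and the other 8 pairs of Crtc2 did not pass. Its r was -0.81 (permutation p = 0.00676, adjusted p = 0.0337; rho = -0.82, permutation p = 0.00463), and -0.85 without the 2 farthest libraries. Creb1 and Pde4b had an r of 0.88 (permutation p = 0.0002, adjusted p = 0.0045; rho = 0.78, permutation p = 0.00108), and 0.80 without the 2 farthest libraries. Gpr3, Crem and Sik1 were in none of the 12 pairs. Gpr3 and Sik1 had an r of 0.67 (permutation p = 0.0205, adjusted p = 0.0658; rho = 0.66, permutation p = 0.0297), which did not pass the adjusted threshold. It was 0.78 without the 2 farthest libraries, and 0.26 within cocaine against 0.90 within saline libraries.

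**Figure D4:**
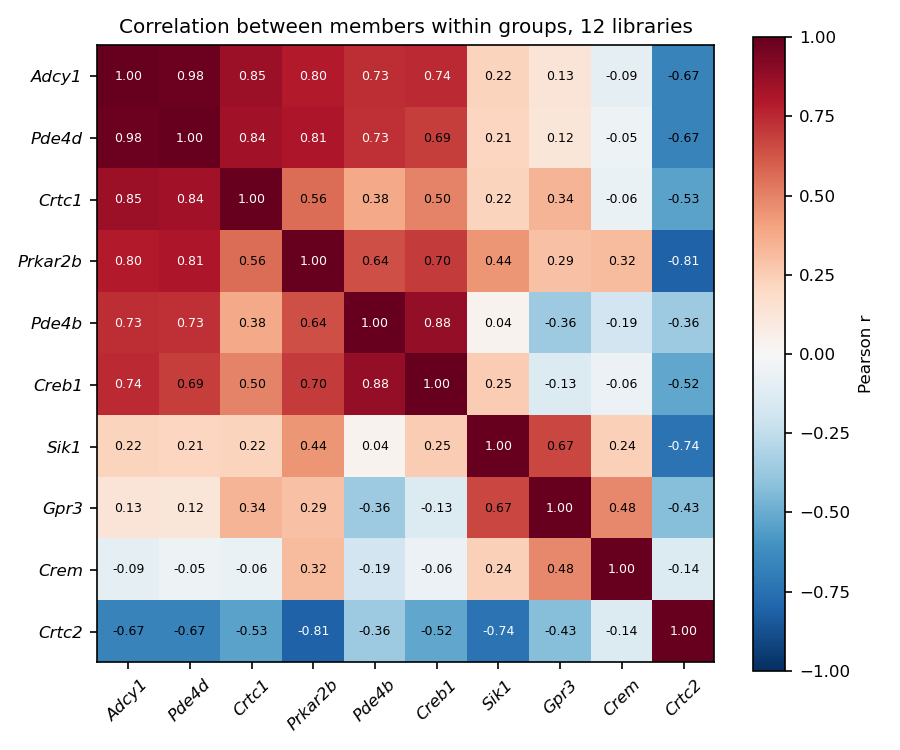
Pearson r between the 10 genes over 12 libraries after each group's mean was removed (colour from -1, blue, to 1, red; the value is printed in each cell). Adcy1, Pde4d, Crtc1, Prkar2b, Pde4b and Creb1 form a red block with r up to 0.98, and Crtc2 is blue against all of the other genes.

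The shared variation was not particular to these genes. An r with Adcy1 as large in size as that of Crtc1, 0.85, was reached by 23.5 percent of the other 13015 genes tested. One as large as that of Pde4d was reached by 0.561 percent. For Prkar2b, Creb1 and Pde4b, whose pairs with Adcy1 also passed, the shares were 32.2, 39.0 and 40.3 percent. The first principal component of all genes tested held 43.4 percent of their variance, and with it removed 1 of the 45 pairs passed, Creb1 with Pde4b (r = 0.74). That component was added after the data were seen, as was a measure of transcript makeup, the share of reads on 73 cytosolic ribosomal protein genes. This share ran from 0.960 to 1.45 percent in cocaine libraries and from 0.899 to 1.65 percent in saline libraries. Its r with Adcy1 was -0.98 (permutation p = 1e-05, the smallest possible; rho = -0.95, permutation p = 3e-05) and it was -0.96 without the 2 farthest libraries. Of the 10 members 6 passed an adjusted p of 0.05 with that share, over 20 relations tested, all 6 with a negative r.

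Transcript length moved with it as well. The 3254 shortest genes tested, up to 2377 bases, had a median r with Adcy1 of -0.59. The 3254 longest, from 6525 bases, had a median of 0.72. Adcy1 itself is 12522 bases long, Pde4d 12006, Crtc1 11182, Creb1 13742 and Pde4b 10560. Genes of 2378 to 4117 bases had a median of -0.31. Among them, Crtc2 (4094 bases) had an r of -0.67 with Adcy1, but Prkar2b (3652 bases) had an r of 0.80. These are correlations across genes, which are not independent replicates, and the part of transcript length or of ribosomal protein transcripts in the spread was not tested. With the oligodendrocyte score removed 14 pairs passed. Of 100 relations between the 10 members and 10 marker lists, 0 passed an adjusted p of 0.05. For Gpr3 the largest was with the oligodendrocyte markers (r = -0.73, permutation p = 0.0131, adjusted p = 0.131; rho = -0.77, permutation p = 0.00761; r = -0.78 without the 2 farthest libraries). Nearly as large for Gpr3 were excitatory cortical neuron markers (r = 0.69, permutation p = 0.0163, adjusted p = 0.145) and astrocyte markers (r = -0.69, permutation p = 0.0174, adjusted p = 0.145). With the oligodendrocyte score as a covariate the Gpr3 difference between groups was 0.39. No fit was run with the score of another marker list.

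**Figure D5:**
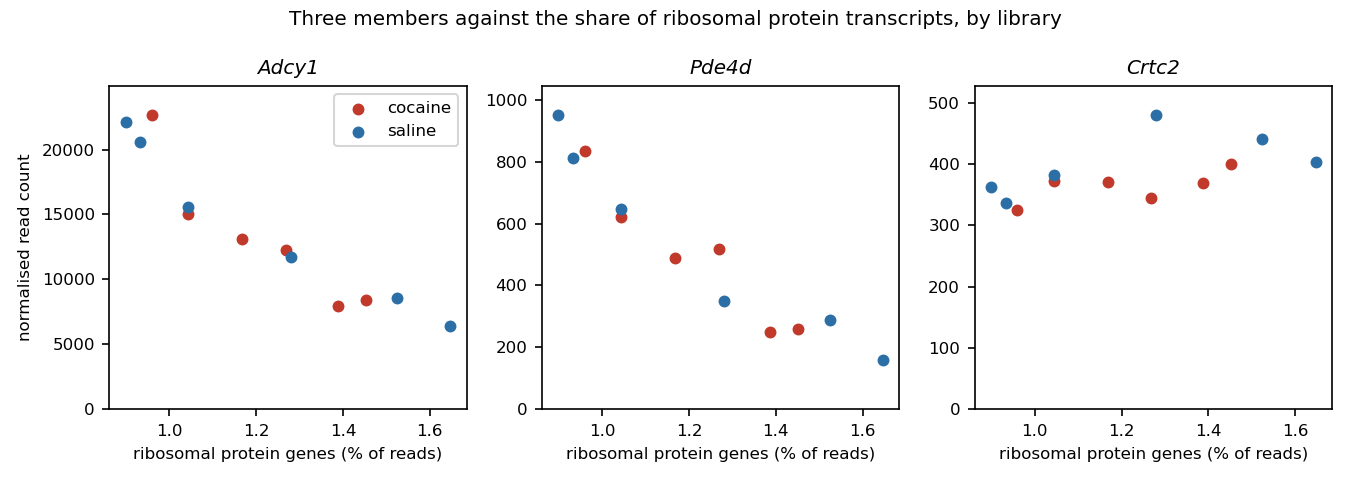
Normalised read count of Adcy1, Pde4d and Crtc2 (y axes, from 0) against the percent of reads on ribosomal protein genes (x axis) in 6 cocaine (red) and 6 saline (blue) libraries. Adcy1 is 22641 in cocaine 2, where the share is 0.960 percent, and 6437 in saline 5, where it is 1.65 percent, and both groups lie along the same course.

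The genes whose values ran most like Gpr3 within groups, among protein-coding genes tested, were Syn1 (r = 0.94), Fjx1 (r = 0.91), Gal3st3 (r = 0.91), Slc7a8 (r = 0.89) and Ypel1 (r = 0.89), each over 12 libraries. Syn1 encodes synapsin I, a protein of synaptic vesicles. Their log2 differences between groups were 0.04 ± 0.09, 0.02 ± 0.11, 0.07 ± 0.09, -0.01 ± 0.08 and 0.07 ± 0.08 (SE) in that order, so none had a difference of the size seen in Gpr3.

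The rest of the pathway was described from lists of 102 further genes, of which 87 were measured well enough to be tested. By limma 0 of the 87 passed the adjusted threshold. In cocaine libraries 42 were higher and 45 lower, with a median log2 difference of -0.01 beside 0.01 over all genes. This split pools unlike parts: without the textbook CREB targets 28 of 70 were higher and 42 lower. That is 40 percent higher, beside 53.7 percent of all genes tested, the share to set beside each list below. Whether any list departs from that share was not tested. At an unadjusted p under 0.05 by limma there were 4 of the 87, all higher, and all were textbook targets of CREB. Of all genes tested 1.14 percent were under that threshold, 0.676 percent higher in cocaine libraries. The lists were chosen with earlier results of these data known, so nothing is read from this count. By edgeR 0 passed, and by DESeq2 2 did, Nr4a1 and Dusp1.

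Upstream of the kinase no list had a member at an unadjusted p under 0.05. Receptors coupled to the stimulatory G protein had 6 of 12 members higher, and Adrb1, the beta-1 adrenergic receptor, had 846 ± 93.4 normalised reads in cocaine and 779 ± 87.3 in saline libraries (log2 0.12 ± 0.09 SE). Adcyap1r1, the receptor for the peptide PACAP, differed by -0.11 ± 0.12. Of the G protein alpha subunits 2 of 7 were higher, with Gnas at -0.11 ± 0.13 and Gnal at -0.08 ± 0.10. Of the other adenylyl cyclases 4 of 7 were higher. Adcy8, which like Adcy1 is stimulated by calcium and calmodulin, had 503 ± 71.9 reads in cocaine and 432 ± 65.9 in saline libraries (log2 0.22 ± 0.12 SE), while Adcy5, the striatal form, differed by -0.12 ± 0.16. Of the other cyclic AMP phosphodiesterases 2 of 8 were higher, and Pde3b and Pde4a differed by -0.09 ± 0.10 and -0.08 ± 0.10.

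The kinase and what follows it showed differences of similar size. Among the other subunits and inhibitors of protein kinase A 6 of 7 were higher by small amounts, with Prkar1a at 0.06 ± 0.08 and Prkar1b at 0.07 ± 0.09 (log2, SE). Anchoring proteins of the kinase had 3 of 10 members higher, with Akap8 at -0.11 ± 0.14 and Akap13 at -0.08 ± 0.14. Among other effectors 2 of 6 were higher, and the cyclic AMP-activated exchange factors Rapgef4 and Rapgef3 differed by -0.20 ± 0.16 and -0.06 ± 0.11. Of the other CREB family members, coactivators and salt-inducible kinases 1 of 6 was higher. Crtc3, the third CRTC coactivator, had 323 ± 37.5 reads in cocaine and 353 ± 29.9 in saline libraries (log2 -0.13 ± 0.09 SE), and Crebbp, the acetyltransferase that binds phosphorylated CREB, differed by -0.12 ± 0.09. Of the CREB kinases 2 of 7 were higher, with Rps6ka1 at -0.13 ± 0.11 and Rps6ka3 at 0.10 ± 0.10.

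Textbook CREB target genes had 14 of 17 members higher, 82.4 percent beside 53.7 percent of all genes tested, and a median log2 difference of 0.10. The 2 with the smallest p were Nr4a1, a nuclear receptor, and Dusp1, a MAP kinase phosphatase, and both were already the leading genes of this series, so the list is not independent evidence of a direction. Nr4a1 averaged 2399 ± 315 in cocaine and 1656 ± 186 in saline libraries (log2 0.53 ± 0.10 SE), and Dusp1 834 ± 143 in cocaine and 528 ± 80.4 in saline libraries (log2 0.66 ± 0.13 SE). Neither passed the adjusted limma threshold. The others at an unadjusted p under 0.05 were Fos (0.39 ± 0.14) and Nfil3 (0.29 ± 0.11), named after their values were seen. Bdnf, Crh and Penk were the 3 lower members, at -0.02 ± 0.10, -0.13 ± 0.16 and -0.18 ± 0.27. The authors' deposited table called 3 genes, Nr4a1, Dusp1 and Arc, each at an adjusted p of 0.0188; Arc, a synaptic cytoskeletal gene, differed by 0.97 ± 0.20 here (log2, SE).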

How the data were processed

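RNA sequencing of 12 libraries was analysed from 1 table of the whole series. Per the submitters' processing notes HISAT2 2.0.5 was used, and a human genome build is named there although the gene IDs are mouse; which program counted reads, with which annotation and strand setting, is not given in the sources used here. The authors' deposited values per library are a signal: each library's reads per gene were divided by 1 size factor, with no scaling by length, and in every library dividing by the smallest step gave whole reads, within 0.01 read, for 100 percent of values. The deposited table also gives, per the file headers, group means and gene length, with the authors' p-value, its adjusted form and their log2 fold change. Gene models came from GENCODE M21 (GRCm38), where 28805 of 28842 IDs were found. For 25 genes a name turned into a date was restored through its ID.

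Here FPKM was computed from value, length and library total. Genes averaging 1 FPKM or more, 13016 in all, were tested with limma 3.58.1 (R 4.3.3, variance trend) on log2(value + 1), two-sided, with Benjamini-Hochberg adjustment and a threshold of 0.05. Fold changes on this scale understate the change of low genes. Count tests on recovered reads used edgeR 4.0.16 (quasi-likelihood) and DESeq2 1.42.0. Correlations used values minus group means, with 100000 permutations of libraries within groups. Scripts were tested on simulated data. The members and gene lists were chosen with earlier results of these data known. Named genes were the 10 members, the 3 called in the deposited table, the 5 most like Gpr3, and the 2 with the smallest p of each pathway list.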

Additional observations from a re-analysis of the deposited data

Results flagged for a closer look

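Among 39 genes whose values are given, examined in both groups, 1 library lay far from the others of its group: Ttr, a choroid plexus transcript, was at 11208 normalised reads in saline 5, and the next saline library stood at 12.6. Chance alone would set apart about 1 in 20 groups. That rate does not apply to Ttr, which is named above for its value in saline 5, so its flag is no separate result. None of the 10 cyclic AMP and CREB genes had a library so far from the others of its group. Without saline 5 the log2 difference of Pde4d was -0.28, that of Adcy1 -0.26 and that of Gpr3 0.43.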

How the results depend on the processing

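Over 28 alternative fits, 12 of them leaving out 1 library, the number of all genes past the threshold was 0 except by DESeq2, with 3, and the number of other pathway genes was 0 except by DESeq2, with 2. No member passed in those where it was tested; with a mean of at least 5 FPKM required, 5 of the 10 were tested. With the replicate number as a block 0 genes passed. The differences of the members were the same (0.42 for Gpr3), which the balanced design fixes in advance. Between same-numbered libraries r ran from -0.40 to 0.43, and no cocaine library was most like the saline library of its own number. Whether the numbers pair the libraries cannot be decided from so few pairs. In both groups odd numbers carried the day 0 tag and even numbers the day 5 tag. Leaving out each library gave 0 genes throughout, a median over the members from -0.07 to 0.10, and for Gpr3 differences from 0.35 to 0.47. For Sik1 they ran from 0.21 to 0.34, for Pde4d from -0.28 to 0.23 and for Adcy1 from -0.26 to 0.10. The number of correlated pairs, 12, was 10 with TMM scaling, 14 with the oligodendrocyte score removed, 1 with the first component removed and 5 with the time tag removed, the last 2 being alternatives chosen after seeing the data. Depth was 16.7 to 19.9 M reads per library.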
